A study of Mus musculus with 6 samples.

Results

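Aminoacyl-tRNA synthetases are the enzymes that join each amino acid to its tRNA. Their genes were followed in mouse embryonic stem (ES) cells that carried a lentivirus for wild-type KBP or for KBP(KK/RR), a mutant that the labels describe as stable. KBP, the Kif1-binding protein, is a partner of kinesin motors. The members are 36 gene symbols of 23420 rows in the count table, chosen by name. They comprise 20 genes of cytosolic enzymes and 16 genes of mitochondrial enzymes, whose symbols end in 2. All 36 passed the filter on low counts, among 14340 genes tested. Both groups were stably transduced cells in self-renewing conditions, with 3 libraries each (wild-type KBP replicates 1, 2 and 3, and KBP(KK/RR) replicates 4, 5 and 6). Cells without a virus were not analysed here, and neither the virus's promoter nor the number of clones is stated in the labels.

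Cells keep separate enzyme sets for protein synthesis in the cytosol and in mitochondria, and nuclear genes encode both. Lysine and glycine are exceptions, since Kars and Gars each supply enzyme to both compartments, and Eprs encodes 1 protein that charges both glutamate and proline. Several cytosolic enzymes are held together in the multi-tRNA synthetase complex by the scaffold proteins AIMP1, AIMP2 and EEF1E1. When amino acids run short, uncharged tRNA activates the kinase GCN2, and the transcription factor ATF4 then raises many cytosolic synthetase genes through C/EBP-ATF response elements.

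The core of that element, TGATGCAA read on either strand, was searched in RefSeq promoter windows on GRCm38.p6, from 250 bases before the start site to 50 after it. Windows were matched for 27 of the 36 genes. Cars, Hars, Lars, Nars, Rars, Vars, Wars, Hars2 and Pars2 were not searched. The core stood in 4 of 13 cytosolic genes (Aars, Iars, Tars and Yars) and in 0 of 14 mitochondrial genes, and in 1.03% of all 27025 genes with a window. With the sixth base free (TGATGNAA, which includes every match of the core), Gars was added, against 4.51% of all genes. All 5 belong to a list of 12 synthetases commonly given as ATF4 targets, of which 8 had a window. Aars2, Vars2 and Sars, the 3 members with the smallest p below, held neither form in their windows. The Aars2 windows began at bases 45506582 and 45506591 of chromosome 17, inside the gene, which starts at base 45503515. The bases around that gene start were not searched. Of the exact matches, 3 are shown, because they are the members' letters for the ATF4 element described above. Each run is written 5′ to 3′ on the gene's strand, with the core in capitals.
Iars, chr13:49682126-49682155, plus strand, 7 bases after the start site: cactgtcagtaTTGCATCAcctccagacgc
Tars, chr15:11399655-11399684, minus strand, 15 bases before the start site: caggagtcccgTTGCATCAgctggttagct
Yars, chr4:129189895-129189924, plus strand, 3 bases after the start site: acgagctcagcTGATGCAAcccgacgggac
A match describes these letters and does not show that the site is bound.

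The libraries held 24131743 to 32160411 counts. Levels are given as CPM, the reads of a gene relative to the library's total, scaled by edgeR's TMM factors. In principal components of the log2 CPM values, component 1 (31.1% of the variance) separated the groups and component 2 (20.8%) set wild-type KBP replicate 3 apart. The 10 ES cell markers summed to between 6808 and 7099 CPM in the libraries, and no marker of the list was at 0. The 7 primitive endoderm markers summed to 18.3 to 21.7 CPM with wild-type KBP, and to 15.9 to 18.8 CPM with the mutant. Among them Pdgfra was lower with the mutant (2.32 ± 0.356 and 1.46 ± 0.0697 CPM, log2 fold change -0.68, edgeR adjusted p = 0.0342). Sox7 was at -0.46 (adjusted p = 0.0949) and Sox17 at 0.07 (adjusted p = 0.939). The 8 fibroblast or feeder markers summed to 20.3 to 23.2 and 20.8 to 21.1 CPM. The 6 neural markers summed to 114 to 118 and 113 to 124 CPM. The KBP gene itself (2510003E04Rik in the table) measured 48.3 ± 1.30 and 56.6 ± 2.88 CPM (SD, n = 3), with every mutant library above every wild-type one. Its log2 fold change was 0.23 (edgeR adjusted p = 0.0133), so KBP RNA was itself higher in the mutant group. This count does not separate the endogenous gene from the virus. Nothing in the labels says that the libraries of a group came from separate cultures, so p-values measure the spread between these libraries, which may be technical.

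Synthetase transcripts differed little between cells given KBP(KK/RR) and cells given wild-type KBP. Of the 36 genes 0 rose and 1 fell, Aars2, the mitochondrial alanine enzyme (edgeR's quasi-likelihood test, Benjamini-Hochberg adjusted p under 0.05). That is 2.78% of the members, against 3.12% of all tested genes (151 higher and 297 lower). With upper-quartile scaling the calls over all genes split into 235 higher and 205 lower. With 9 members at an unadjusted p under 0.05 (4 higher, 5 lower), this share was 25%, against 18.6% of all genes. The groups did not overlap for 12 members, 33.3% of them, against 22.4% of all genes. The estimates ran from 0.873-fold (Aars2) to 1.08-fold (Sars), and 34 of the 36 lay within 1.1-fold of no change.

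Intervals bounded these differences. The standard error of the log2 fold change ran from 0.04 to 0.09 with a median of 0.04. For 34 of the 36 genes the whole 95% interval lay within 1.2-fold of no change. The lowest bound was 0.812-fold, for Aars2, and the highest was 1.18-fold, for Nars2. Counts behind these values ran from 231 (Wars2) to 51016 (Lars2) in a library.

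**Figure D1:**
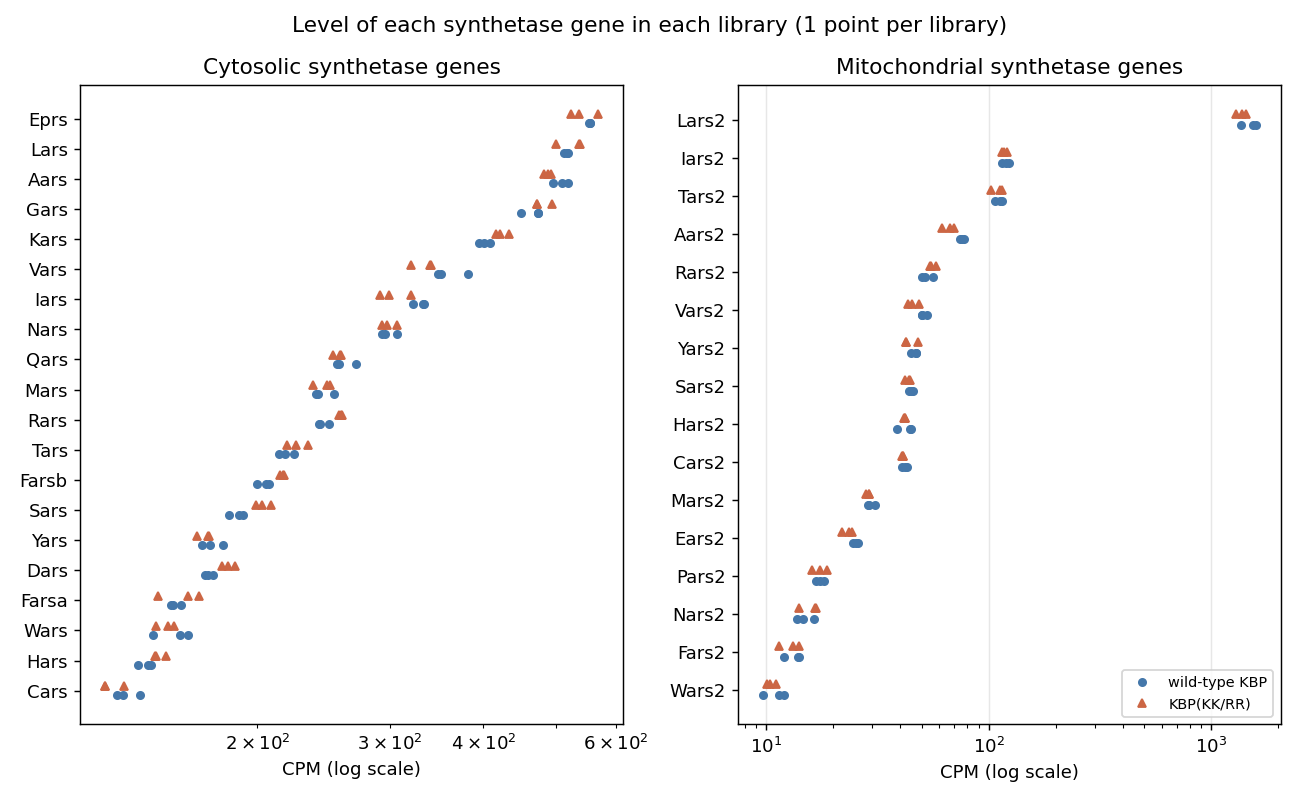
CPM (log scale) of each of the 20 cytosolic and 16 mitochondrial synthetase genes, 1 point per library, circles for wild-type KBP and triangles for KBP(KK/RR). The points of the groups lie close together for every gene, and Lars2 stands above all others at 1289 to 1589 CPM.

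**Figure D2:**
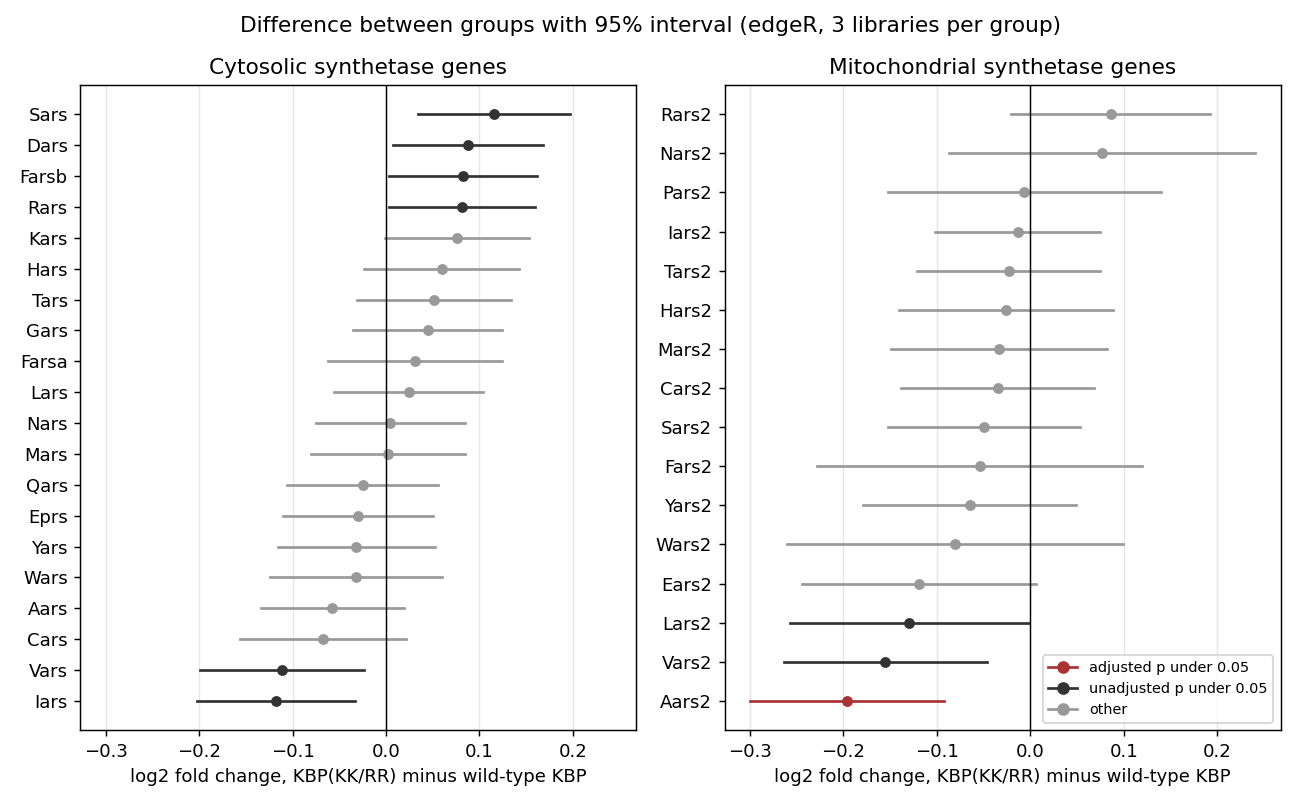
Log2 fold change of KBP(KK/RR) minus wild-type KBP for each gene (point) with its 95% interval (line) from edgeR on 3 libraries per group. Aars2 is the 1 gene with an adjusted p under 0.05, and 8 others have an unadjusted p under 0.05.

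Among the 20 cytosolic genes edgeR called 0, as did DESeq2 and limma-voom, and 6 had an unadjusted p under 0.05 (4 higher, 2 lower). Higher genes at that p were 8.32% and lower ones 10.3% of all genes. Their log2 fold changes were positive for 12 and negative for 8, with a median of 0.01, beside -0.0022 over all genes tested. The summed level of all 20 was 5724 ± 72.7 and 5738 ± 48.1 CPM in wild-type KBP and KBP(KK/RR) cells (SD, n = 3). In single genes, KBP(KK/RR) lay above wild-type KBP in all libraries for 6 genes (Dars, Farsb, Hars, Kars, Rars and Sars) and below it for 3 (Aars, Iars and Vars). Over all genes, 11.8% lay above in this way and 10.5% below.

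Sars, the seryl-tRNA synthetase, which also charges the tRNA of selenocysteine, had the largest positive difference of the 36. Wild-type KBP libraries held 183, 189 and 191 CPM, and KBP(KK/RR) libraries 199, 203 and 209 CPM. Every mutant library was above every wild-type one. Its log2 fold change of 0.12 (95% interval 0.03 to 0.20, SE 0.04) missed the threshold (edgeR adjusted p = 0.113). After removal of each library's trend on transcript length and GC (the trend-corrected values below) it passed (0.12, adjusted p = 0.0203).

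Dars, the aspartyl enzyme and a member of the multi-synthetase complex, measured 174, 172 and 170.3 CPM against 183, 179.6 and 186 CPM (log2 fold change 0.09, edgeR adjusted p = 0.227). Rars, the arginyl enzyme of the same complex, measured 249, 242 and 242 CPM against 259.6, 257 and 259 CPM (0.08, adjusted p = 0.246). Farsb, the beta subunit of phenylalanyl-tRNA synthetase, measured 207, 199.6 and 205 CPM against 216, 214 and 217 CPM (0.08, adjusted p = 0.25). The KBP(KK/RR) libraries lay above the wild-type KBP libraries for each of these 3 genes, by amounts that did not pass the threshold. Their trend-corrected log2 fold changes were smaller, 0.03 for Dars, 0.04 for Rars and 0.04 for Farsb. Farsa, the alpha subunit that pairs with Farsb in 1 enzyme, measured 155 ± 2.67 and 159 ± 10.3 CPM with overlapping groups (0.03, adjusted p = 0.76).

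The lowest cytosolic estimate was that of Iars, the isoleucyl enzyme of the complex. It stood at 322, 334 and 333 CPM with wild-type KBP, and at 320.1, 299 and 292 CPM with the mutant. KBP(KK/RR) replicate 4 stood 2 CPM under the lowest wild-type library, and replicates 5 and 6 lay further down. Its log2 fold change of -0.12 (95% interval -0.20 to -0.03, SE 0.04) also missed the threshold (edgeR adjusted p = 0.118). It passed once KBP(KK/RR) replicate 4 was left out (-0.16, adjusted p = 0.0224) and when trend-corrected (-0.12, adjusted p = 0.026). Of the 25-base words of its main transcript 22.0% also occur in transcripts of other genes, most of them (934 words) in Gm4849, and how such reads were counted was not tested.

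Vars, the valyl enzyme, stood at 351, 348 and 382 CPM with wild-type KBP, and at 319.9, 339 and 341 CPM with the mutant. Wild-type KBP replicate 3 was the high library, and the groups did not overlap. The estimate was -0.11 on the log2 scale (SE 0.04, edgeR adjusted p = 0.161), -0.07 without that library and -0.03 trend-corrected, and no alternative tried called it.

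Eprs, Gars, Lars, Mars, Nars, Qars and Wars had overlapping groups and log2 fold changes from -0.03 (Wars) to 0.04 (Gars). Of these, Lars, Nars and Wars had no promoter window, so whether they hold the core is not known here.

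Of the 4 genes with the response element core, 0 were called. Aars, the alanyl enzyme, measured 507 ± 11.5 and 487 ± 5.13 CPM (log2 fold change -0.06). Tars, the threonyl enzyme, measured 218 ± 5.26 and 226 ± 7.02 CPM (0.05), and Yars, the tyrosyl enzyme, 174 ± 5.71 and 170.3 ± 3.36 CPM (-0.03). Iars, described above, had the lowest value of the 4. Their edgeR adjusted p were 0.424, 0.52, 0.72 and, for Iars, 0.118. Of the 12 synthetases commonly given as ATF4 targets, 0 were called, 6 had a positive and 6 a negative estimate, and the median log2 fold change was -0.01. The other 8 cytosolic genes had 6 positive and 2 negative estimates, a median of 0.07 and 0 calls.

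The 8 synthetases of the multi-synthetase complex had 5 positive and 3 negative estimates with a median log2 fold change of 0.01. The 12 cytosolic genes outside it had 7 and 5 with a median of 0.02, and edgeR, DESeq2 and limma-voom called 0 in either set. The 3 scaffold genes had positive estimates. Aimp1 stood at 88.6, 86.0 and 85.2 CPM with wild-type KBP, and at 90.6, 96.2 and 97.9 CPM with the mutant (log2 fold change 0.13, edgeR adjusted p = 0.113). Leaving out KBP(KK/RR) replicate 4 gave a call (0.16, adjusted p = 0.0288). Eef1e1 measured 64.2 ± 3.26 and 68.8 ± 2.01 CPM (0.10, adjusted p = 0.277) and 0.06 trend-corrected. Aimp2 measured 76.7 ± 4.57 and 78.4 ± 3.98 CPM (0.03, adjusted p = 0.789), and its sign turned without replicate 1 of wild-type KBP and without mutant replicate 5.

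Synthetases fall into classes I and II, whose catalytic domains have unrelated folds. Split by class after the values were seen, the 10 cytosolic class II genes had 9 positive estimates and 1 negative, with a median log2 fold change of 0.06. The 10 cytosolic class I genes, with Eprs counted here although its prolyl part is of class II, had 3 positive and 7 negative, with a median of -0.03. Among mitochondrial genes both classes were mostly negative, with 8 of 9 in class I and 6 of 7 in class II. No test was made of this split.

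Of the 16 mitochondrial genes 1 was called, lower, where 2.07% of all genes were called lower. Of the 16 estimates 14 were negative and 2 positive (Nars2 and Rars2), with a median log2 fold change of -0.04, beside -0.0022 over all genes tested. The standard error of a single gene had a median of 0.06, which does not measure the spread of a median over genes. The median log2 fold change was -0.011 without replicate 2 of wild-type KBP and -0.058 without mutant replicate 5. With upper-quartile scaling it was -0.024. Negative estimates numbered 12 with upper-quartile scaling or trend correction, and 11 when replicate 2 of wild-type KBP or mutant replicate 4 was left out. Unadjusted p under 0.05 were reached by 3 genes, all lower (18.8%), where 10.3% of all genes reached this on the lower side. The groups did not overlap for 3 genes (18.8%), Aars2, Ears2 and Vars2, all with KBP(KK/RR) below, against 22.4% of all genes in either direction and 10.5% below.

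Aars2 (chromosome 17, 45503515 to 45520843) encodes the mitochondrial alanyl-tRNA synthetase. Wild-type KBP libraries held 74.3, 75.9 and 77.3 CPM, and KBP(KK/RR) libraries 61.4, 70.1 and 67.3 CPM. The wild-type libraries lay within 3 CPM of each other, all mutant libraries were below them, and KBP(KK/RR) replicate 4 was the lowest. Aars2 fell by 0.20 on the log2 scale (95% interval -0.30 to -0.09, SE 0.05, edgeR adjusted p = 0.0341), and 2.07% of all genes were called lower. In these bulk libraries fewer cells of a type and less RNA per cell cannot be told apart. DESeq2 also called it (adjusted p = 0.0414). The call was lost in limma-voom (0.0562), in limma on the authors' normalized values (0.0603) and with upper-quartile scaling (0.0556). Omitting wild-type replicate 2 (0.131) or replicate 3 (0.0893), or mutant replicate 4 (0.0748) or replicate 6 (0.112), lost it too, with log2 fold changes of -0.19, -0.18, -0.14 and -0.21 in that order. The trend-corrected log2 fold change was smaller but called (-0.13, adjusted p = 0.0432). Aars, the cytosolic enzyme for the same amino acid, had an estimate of -0.06. Aars kept this sign in 16 of 17 alternatives, and its highest log2 fold change among them was 0.03.

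Vars2, the mitochondrial valyl enzyme, stood at 50.1, 49.9 and 53.0 CPM with wild-type KBP, and at 43.6, 48.8 and 45.2 CPM with the mutant. All mutant libraries were below all wild-type ones, by 1 CPM for replicate 5. The estimate was -0.16 on the log2 scale (SE 0.05, edgeR adjusted p = 0.11) and -0.09 trend-corrected (adjusted p = 0.258). Cars2, Fars2, Hars2, Iars2, Mars2, Nars2, Pars2, Rars2, Sars2, Tars2, Wars2 and Yars2 had overlapping groups and log2 fold changes from -0.08 (Wars2) to 0.09 (Rars2). Ears2, which charges the mitochondrial glutamate tRNA, measured 25.2 ± 0.602 and 23.2 ± 1.17 CPM (-0.12, adjusted p = 0.294).

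Lars2, the mitochondrial leucyl enzyme (chromosome 9, 123366927 to 123462675), stood apart in level. Wild-type KBP libraries held 1364, 1589 and 1541 CPM, and KBP(KK/RR) libraries 1378, 1289 and 1442 CPM. The groups overlapped, since wild-type KBP replicate 1 lay under 2 of the mutant libraries. Its log2 fold change of -0.13 had a 95% interval of -0.26 to -0.0011 (SE 0.06, edgeR adjusted p = 0.266). It was called once wild-type KBP replicate 1 was left out (-0.19, adjusted p = 0.0218) and with no filter on low counts (-0.13, adjusted p = 0.0166). The estimate was -0.08 without wild-type replicate 2 (adjusted p = 0.562) and -0.09 without mutant replicate 5 (adjusted p = 0.469).

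The main Lars2 transcript, in GENCODE M21, has 3894 bases, and its 3′ untranslated region starts at base 2909. Between bases 3172 and 3329 it shares 60 words of 25 bases with other transcripts, 44 of them with AA474408 and 28 with Gm15564. The ribosomal RNA precursor Rn45s, named here after its values were seen, measured 1966, 2145 and 2467 CPM in wild-type KBP libraries. In KBP(KK/RR) libraries it measured 1557, 1550.5 and 1751 CPM. Its log2 fold change was -0.44 (edgeR adjusted p = 0.123), and all mutant libraries were below all wild-type ones. The RNA was RiboZero-treated, so Rn45s reads are those left after removal of ribosomal RNA. Removal and level cannot be told apart here. The part of shared or ribosomal reads in the Lars2 count was not tested. The 16 mitochondrial genes together summed to 2195 ± 121 and 2044 ± 80.5 CPM, and the 15 without Lars2 to 697 ± 6.97 and 674 ± 17.4 CPM (SD, n = 3).

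**Figure D3:**
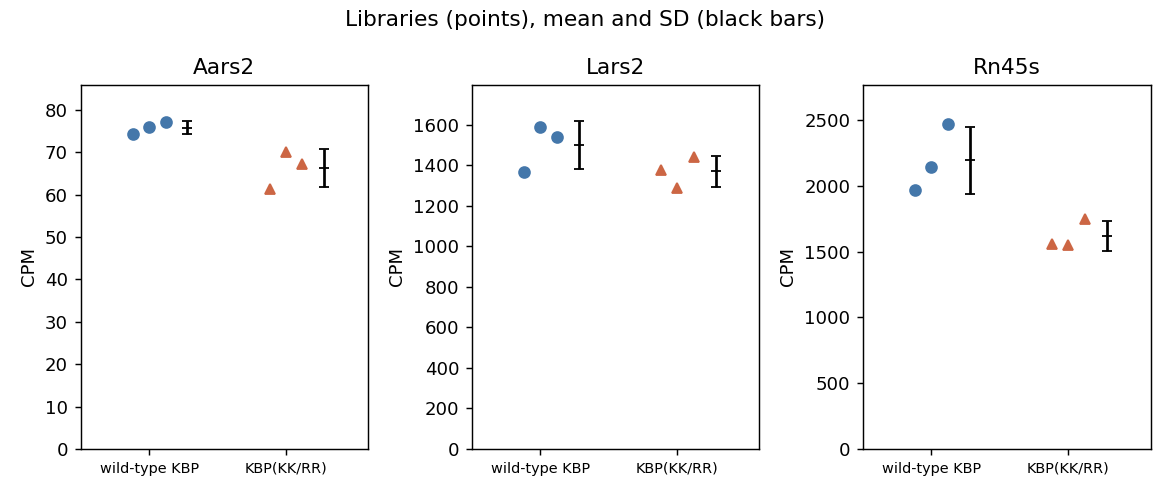
CPM of Aars2, Lars2 and the ribosomal RNA precursor Rn45s in each library (points), with the mean and SD of 3 libraries per group in black. Aars2 lies at 74.3 to 77.3 CPM with wild-type KBP, and at 61.4 to 70.1 CPM with the mutant, the Lars2 groups overlap, and Rn45s lies lower in all KBP(KK/RR) libraries.

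Levels were compared between genes per kilobase of the longest principal transcript in GENCODE M21, in wild-type KBP cells. The median was 86.1 CPM per kilobase for the cytosolic and 17.2 for the mitochondrial genes. The highest cytosolic level was that of Kars, the lysyl enzyme, at 200.02 ± 3.42 CPM per kilobase, next to Gars, the glycyl enzyme, at 195 ± 5.73. These 2 did not differ beyond their spread. The lowest was that of Cars, the cysteinyl enzyme, at 41.6 ± 1.49 CPM per kilobase. In CPM, Kars measured 395, 401 and 409 in wild-type KBP and 416, 433 and 421 in KBP(KK/RR) libraries (log2 fold change 0.08, edgeR adjusted p = 0.279). Cars measured 139, 130.1 and 132 CPM against 125, 133 and 125 CPM (-0.07, adjusted p = 0.42), with groups that overlapped.

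Among mitochondrial genes Lars2 was highest, at 385 ± 30.4 CPM per kilobase, with the part of shared or ribosomal reads in its count not tested. Wars2, the tryptophanyl enzyme, was lowest at 2.50 ± 0.282, beside Mars2, the methionyl enzyme, at 2.60 ± 0.1003, and these did not differ beyond their spread. Both have long transcripts (4410 and 11294 bases). Per kilobase of coding sequence Fars2, the phenylalanyl enzyme, was lowest at 9.79 CPM, with Wars2 at 10.2 and Mars2 at 16.7. In CPM, Wars2 measured 11.4, 12.03 and 9.63 in wild-type KBP and 10.01, 10.4 and 11.1 in KBP(KK/RR) libraries (log2 fold change -0.08, 95% interval -0.26 to 0.10, edgeR adjusted p = 0.664). This least counted gene had the widest standard error of the set, 0.09.

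For 13 amino acids a cytosolic gene was paired with the mitochondrial gene of the same symbol followed by 2. Phenylalanine (Farsa and Farsb with Fars2) and glutamate and proline (Eprs with Ears2 and Pars2) were left out, since their genes do not match singly. The cytosolic gene had the higher level per kilobase in 12 of the 13 pairs, also per kilobase of coding sequence, and leucine was the exception. That exception rests on the Lars2 count, in which the part of shared or ribosomal reads was not tested. Per kilobase of transcript the ratio of cytosolic to mitochondrial level ran from 0.337 for leucine and 1.17 for threonine to 33.9 for tryptophan. Its median was 3.9. The alanine pair had a ratio of 3.9 and the valine pair of 7.55. The order depends on the length used. Per kilobase of coding sequence the ratio was highest for asparagine, at 17.1, and was 10.5 for tryptophan, 6.77 for alanine, 5.92 for valine and 0.264 for leucine. The estimates of both valine genes were negative (-0.11 and -0.16) and those of both arginine genes positive (0.08 and 0.09). For serine they differed in sign, at 0.12 for Sars and -0.05 for Sars2.

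**Figure D4:**
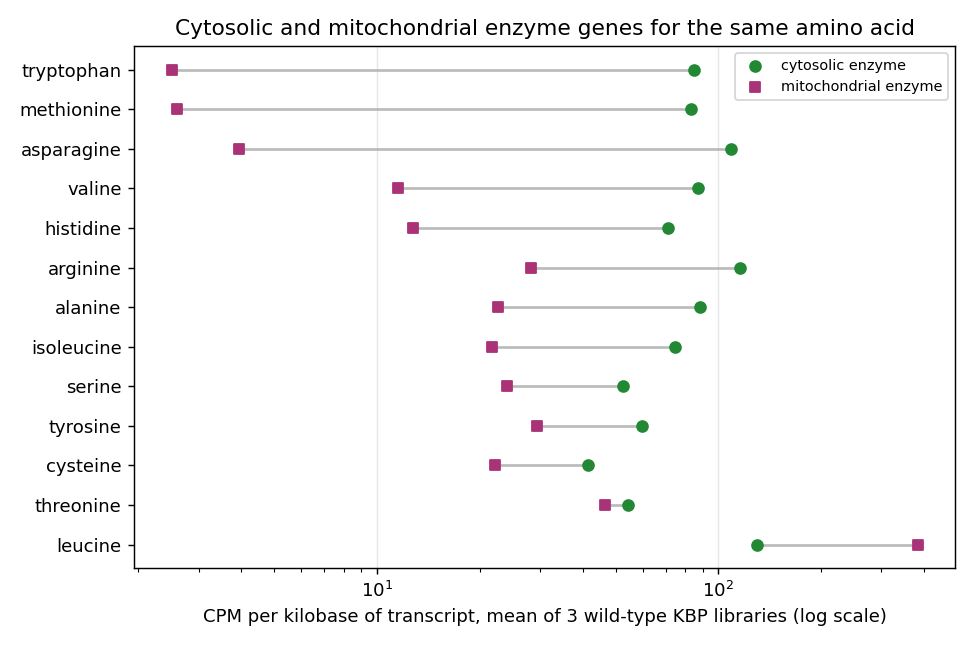
Level per kilobase of transcript (log scale, mean of 3 wild-type KBP libraries) of the cytosolic (circle) and mitochondrial (square) enzyme gene for each of 13 amino acids. The cytosolic gene is higher in every pair except leucine, where Lars2 is at 385 and Lars at 129.7 CPM per kilobase. Shared or ribosomal reads in the Lars2 count were not tested.

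Several members share exons with a neighbour, and the strand setting of the counting was not given in the sources used here. Iars2 shares 2034 exonic bases (22.9% of its exons) with Rab3gap2 on the opposite strand, and Aars shares 1326 bases (14.3%) with Exosc6 on its own strand. Hars and Hars2, on opposite strands, share 195 exonic bases. They share 173 words of 25 bases, counted on either strand, so these words can come from the same overlap. Values of these genes are therefore uncertain as to which gene the reads came from. Hars measured 142 ± 2.76 and 148 ± 2.80 CPM and Hars2 42.5 ± 3.21 and 41.8 ± 0.308 CPM, neither called. Farsb shares 226 words (11.2%) with Sgpp2, Vars2 shares 233 (5.29%) with Gm20483, and Cars2 shares 380 (20.2%) with Naxd. Sars, Dars and Rars share no such word with another gene, and Aars2 shares 7 of its 3325.

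Genes around the synthetases were read from lists. Among 25 other genes of the GCN2 and ATF4 amino acid response, 0 rose and 2 fell (8% of them, against 3.12% of all genes), 18 estimates were negative, and the median log2 fold change was -0.05. Gcn1l1, which encodes the GCN1 protein that activates GCN2 at ribosomes, fell from 418, 453 and 445 CPM to 390.2, 389.7 and 368 CPM (log2 fold change -0.20, edgeR adjusted p = 0.00817). Its trend-corrected estimate was -0.02 (adjusted p = 0.786), and omitting wild-type replicate 2 (0.0886) or mutant replicate 6 (0.096) ended the call with the estimate at -0.17 in both cases. Slc7a5, an importer of large neutral amino acids, fell from 349, 354 and 392 CPM to 311, 319.5 and 310.1 CPM (-0.22, adjusted p = 0.00572), a call lost without KBP(KK/RR) replicate 6 (0.0614). Its partner chain Slc3a2 measured 281 ± 12.5 and 255 ± 8.64 CPM (-0.14, adjusted p = 0.0705). Atf4 itself measured 214, 209 and 211 CPM against 195, 200.3 and 200.4 CPM (-0.09, adjusted p = 0.198), with every mutant library lower.

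The 5 remaining lists held 0 calls by edgeR and by limma-voom, and 1 by DESeq2, in RNA polymerase III. In nuclear tRNA splicing and export 6 of 12 genes (50%) had an unadjusted p under 0.05 by edgeR, 5 of them higher, against 18.6% of all genes and 8.32% on the higher side. DESeq2 gave 4 such genes and limma-voom 5. They included Fam98b of the tRNA ligase complex (59.3 ± 3.61 and 64.5 ± 1.40 CPM, log2 fold change 0.12, adjusted p = 0.189), and the median was 0.08. Among 22 genes of RNA polymerase III and its factors, which transcribe tRNA genes, 7 (31.8%) had an unadjusted p under 0.05 (2 higher, 5 lower) with a median of 0.01. Of all genes 18.6% had such a p, 8.32% higher and 10.3% lower. Polr3gl, a polymerase subunit, measured 11.99 ± 0.9001 and 10.2 ± 0.689 CPM (-0.25, adjusted p = 0.106). The gene called lower by DESeq2 was Bdp1, a subunit of its initiation factor TFIIIB, named here after its values were seen (84.0 ± 5.61 and 70.9 ± 8.70 CPM, -0.24, edgeR adjusted p = 0.196). Of 20 genes for mitochondrial charging helpers and tRNA processing 1 had an unadjusted p under 0.05, 1110008L16Rik (38.7 ± 0.405 and 41.9 ± 0.965 CPM, 0.11, adjusted p = 0.22). Of 8 editing and hydrolase genes 0 did, with Dtd1, a D-aminoacyl-tRNA deacylase, at 0.12 (adjusted p = 0.366). Of 8 genes for selenocysteine tRNA charging Sars alone did.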

How the data were processed

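Libraries came from RiboZero-treated total RNA and the ScriptSeq v2 kit, per the labels' protocols. The submitters' processing notes name bcl2fastq, TopHat, HTSeq and DESeq2 and the builds mm10 and GRCm38; versions, annotation and strand setting: not given in the sources used here. Raw counts were deposited by the authors per gene symbol, with a normalized signal that holds each count divided by 1 factor per library, judged from its values. With that factor removed, 100% of the values above 0 were whole reads within 0.01, 0 of them differed from the raw counts, and edgeR called 151 higher and 297 lower genes from them, as from the raw table.

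Raw counts were tested with edgeR 4.0.16 under R 4.3.3 (filterByExpr, TMM, robust quasi-likelihood fit with the group as its term). Benjamini-Hochberg adjusted p-values under 0.05 over all 14340 tested genes were called. Positive log2 fold changes mean higher in KBP(KK/RR). The standard error is the absolute log2 fold change over the square root of F, and 95% intervals use the fit's degrees of freedom. DESeq2 1.42.0, limma 3.58.1 and other scalings, filters and omissions were alternatives. Trend-corrected values had the dependence of log2 CPM on length and GC removed per library by splines with 5 degrees of freedom, over 14204 genes. Replicate pairs differed by more than counting noise (chi-square per degree of freedom 2.69 to 7.19). The test was tried on simulated counts.

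Members and lists were chosen with earlier results of these data known. Genes given per library were those with an unadjusted p under 0.05 and the highest and lowest level per kilobase of each compartment. Called genes and the smallest p of each other list were added, as were genes said to be chosen later, and further genes that a comparison turns on. The promoter search was planned for 3 members and widened to all with a window. Of the exact matches, 1 further sequence is not reported here.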

Additional observations from a re-analysis of the deposited data

How the results depend on the processing

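Of the 36 synthetase genes, 32 were called in none of the 17 alternatives, and 25 kept their sign in all of them. Among these alternatives, the threshold of 0.1 and the recovered reads leave every fold as it is. Without single libraries the median log2 fold change ran from -0.058 to -0.011 for mitochondrial genes (-0.042 with all), the latter without wild-type KBP replicate 2. For cytosolic genes it ran from 0.0018, without KBP(KK/RR) replicate 6, to 0.025 (0.014 with all). The alternative on whole reads recovered from the normalized values was chosen after seeing the data and gave the same counts. No paired analysis was possible because the groups share no replicate number. Mitochondrial genes called lower numbered 1, but 0 in limma-voom, in limma on log2 of the authors' normalized values plus 1 and with upper-quartile scaling, 2 with no filter on low counts, and 0 to 2 when single libraries were left out. Cytosolic genes called lower and higher numbered 0 and 0, but 1 and 1 when trend-corrected, and 0 to 1 lower when single libraries were left out. Aimp2 had a log2 fold change of 0.031, and -0.016 to 0.064 when single libraries were left out. Over all genes, 151 were called higher. There were 70 with DESeq2, 78 with limma-voom, 82 with limma on normalized values, 235 with upper-quartile scaling, 284 with no filter, 309 at an adjusted p threshold of 0.1 and 323 when trend-corrected. Leaving out single libraries gave 37 to 198. The 297 called lower became 192 with limma-voom, 197 with limma on normalized values, 682 with no filter and 514 at a threshold of 0.1, and 85 to 569 when single libraries were left out. The cause of these shifts was not tested. The median standard error was 0.06 for mitochondrial and 0.04 for cytosolic genes.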
